A study of Homo sapiens with 6 samples.

Results

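The genes described here encode the protein subunits of the mitochondrial ribosome. A gene was included when the platform's symbol for its probe set began with MRPL or MRPS followed by a digit, and 74 of the 15669 genes with a symbol on the array met this rule, 47 with an MRPL symbol and 27 with an MRPS symbol. Each had 1 probe set, and none carried a pseudogene or antisense suffix. The mitochondrial ribosome translates the few mRNAs of the mitochondrial genome, which encode core subunits of the respiratory chain and of ATP synthase. All of its proteins are encoded in the nucleus, made in the cytosol and imported, and they assemble with mitochondrial rRNA into a small subunit that decodes the mRNA and a large subunit that forms the peptide bonds. Compared with the bacterial ribosome it has shorter rRNA and many additional proteins.

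Expression was measured in MDA-MB-231 cells, an established human line of basal-like, mesenchymal-type breast cancer. One group carried the lentiviral hairpin shS100A10_5 and another the lentiviral hairpin shS100A10_1, both directed against S100A10, the calcium-insensitive S100 protein that pairs with annexin A2, and the third carried the control hairpin shNCT. All 3 groups were grown in RPMI1640 with 10% FBS, penicillin, streptomycin and 2.5 µg/ml puromycin, and 2 arrays per group, 6 in all, were hybridised with biotin-labelled total RNA. The labels do not state whether replicate arrays stem from different cultures or infections, nor whether a line was a pool or a clone, so a p-value here reflects array-to-array spread alone, possibly a technical one. S100A10 had deposited intensities of 13565 and 9460.5 with shS100A10_5, 1969 and 1545 with shS100A10_1, and 88860.2 and 92938 with shNCT. The message was thus 8.02-fold lower with shS100A10_5 (limma, adjusted p = 0.000442) and 52.1-fold lower with shS100A10_1 (adjusted p = 1.71e-06) than with shNCT.

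Array medians lay between 232 and 238 intensity units. On the first principal component over all probe sets, which held 45.2% of the variance, the shS100A10_5 arrays stood apart from the others at 18.7 for replicate 1 and 41.1 for replicate 2, and the 4 other arrays lay between -18.2 and -10.0. Most medians of gene groups with this hairpin, and the count of members that passed, are therefore also given without its second array. Across the 6 arrays, log2 intensity ranged from 16.3 to 16.7 for VIM, a mesenchymal filament gene and marker of the line, and 0 of the 5 measured markers of the line passed the test with either hairpin. Presence of a marker could not be called, since no detection calls were used. Of the 6 measured luminal epithelial markers, 0 passed with either hairpin. Their levels differed widely, with a log2 intensity of 15.3 to 15.6 for KRT8 and of 3.15 to 4.05 for CDH1. Of the 4 measured leukocyte markers, only LYZ passed, with both hairpins. The 3 measured fibroblast markers had a summed log2 level of 7.40 to 7.55 with shS100A10_5 and of 6.81 to 6.93 with shNCT, and 0 of them passed. The part of these markers in the results below was not tested.

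With shS100A10_5, 5 of the 74 genes fell below shNCT and 0 rose at an adjusted p under 0.05 (limma, Benjamini-Hochberg adjustment over 16965 probe sets), against 1.75% of all probe sets that fell and 1.43% that rose, together 3.18%. The genes that fell were MRPL24 and MRPL4 of the large subunit and MRPS11, MRPS16 and MRPS25 of the small subunit, by 1.67- to 2.07-fold, with standard errors of 0.169 to 0.238 on the log2 scale. With shS100A10_1, 0 of the 74 passed, against 0.189% of all probe sets (0.0884% lower), and the lowest adjusted p of any member was 0.407. At an unadjusted p under 0.05 with shS100A10_1, 1 member was lower, MRPS9, and 0 were higher, against 4.16% and 4.28% of all probe sets and 8.44% in either direction. In RNA from a whole culture, fewer cells that express a gene and less of its RNA per cell cannot be told apart.

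MRPL24, whose bacterial counterpart L24 sits near the exit of the peptide tunnel, had intensities of 1861.4 and 1106.6 with shS100A10_5, 2829.9 and 2454.6 with shS100A10_1, and 2933.4 and 3011.2 with shNCT. Both shS100A10_5 arrays were below the other 4, and the log2 change against shNCT was -1.05 ± 0.24 (SE; limma, adjusted p = 0.0452). MRPL4, the homologue of a bacterial protein that lines the same tunnel, had 3390.0 and 2849.3 with shS100A10_5, 4736.1 and 4899.0 with shS100A10_1, and 5752.3 and 4928.5 with shNCT. Its groups with shS100A10_5 and with shNCT did not overlap either, and it fell by 0.78 ± 0.18 on the log2 scale (adjusted p = 0.0484).

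The small-subunit genes showed a similar separation, with closer replicates in the shS100A10_5 group. MRPS11, the homologue of bacterial S11, had intensities of 1921.5 and 1782.3 with shS100A10_5, 2478.2 and 3215.3 with shS100A10_1, and 3497.0 and 3109.2 with shNCT, a log2 change of -0.83 ± 0.19 against shNCT (limma, adjusted p = 0.0452). MRPS16, the homologue of bacterial S16, had 2593.4 and 2261.6 with shS100A10_5, 4077.4 and 4144.1 with shS100A10_1, and 3843.8 and 4495.7 with shNCT, a change of -0.78 ± 0.18 (adjusted p = 0.0452). For MRPS25, a protein with no bacterial counterpart, the values were 658.2 and 683.0 with shS100A10_5, 1143.0 and 1054.7 with shS100A10_1, and 1185.6 and 1059.5 with shNCT, a change of -0.74 ± 0.17 (adjusted p = 0.0467). In all 3 genes the shS100A10_5 arrays were the lowest of the 6, while the values with shS100A10_1 overlapped those with shNCT.

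**Figure D1:**
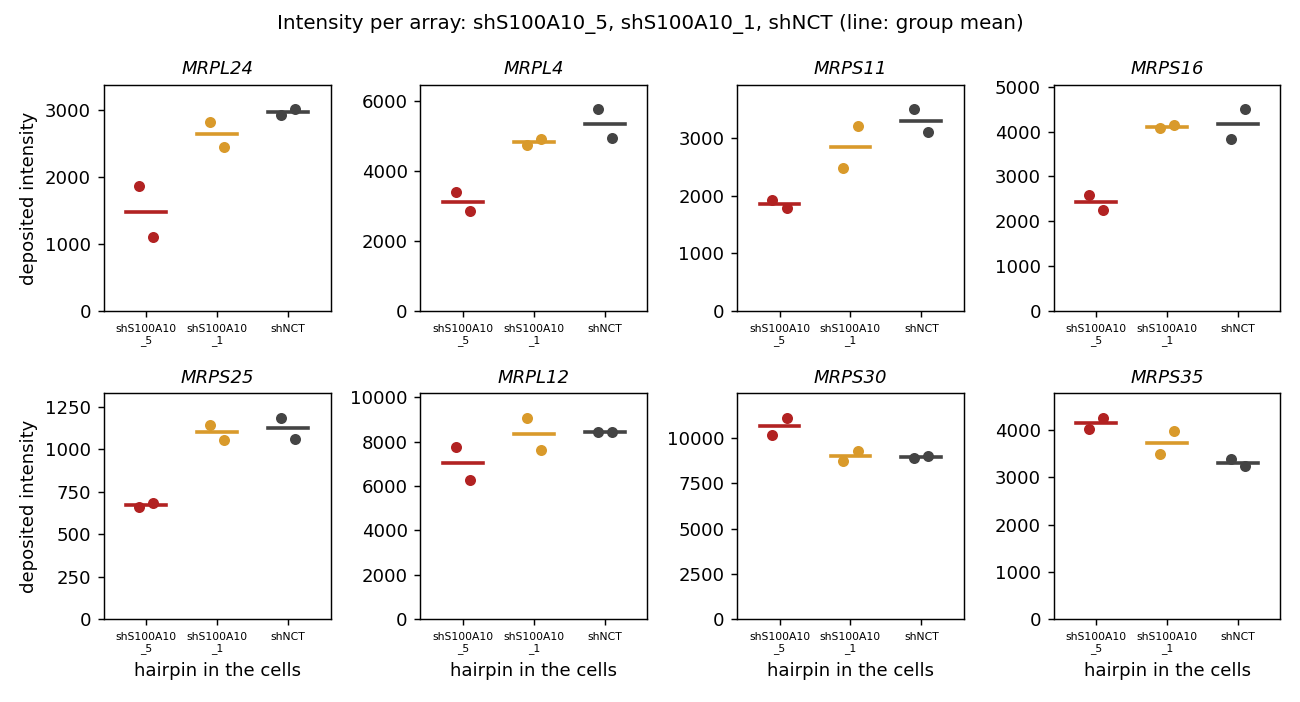
Deposited intensity (linear scale from 0) of 8 mitochondrial ribosomal protein genes, with a point per array and a line at the mean of each group of 2; the order is shS100A10_5, shS100A10_1 and shNCT. In the 5 genes that passed the test, such as MRPS25 with 658.2 and 683.0 in shS100A10_5 cells, both shS100A10_5 points lie below the other 4, and for MRPS30 and MRPS35, which did not pass, they lie above.

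Upstream sequence of the 5 genes that fell, and of MRPS30 and MRPS35, for which both shS100A10_5 arrays were the highest, is shown so that the genes that fell can be set beside genes that did not pass. MRPL19 and MRPS5 had the same pattern but are not shown. A gene that did not pass was shown only if the naming rule given below picked it and it had 1 window. Each window is the 250 bases before the annotated start site in RefSeq (GRCh38.p14), read 5′ to 3′ on the strand of the gene. MRPL4 has more than 1 annotated start, and the window shown was picked because it holds a match. Its other window held 0 matches. Capitals mark matches, on either strand, to 3 motifs of factors known to act on nuclear genes for mitochondrial proteins: TGCGCA, the NRF1 half-site; CCGGAA, which reads TTCCGG on the other strand, the core bound by ETS factors such as GABP; and AAGATGG, which reads CCATCTT on the other strand, the YY1 core.
MRPL24, chr1:156741089-156741338, minus strand: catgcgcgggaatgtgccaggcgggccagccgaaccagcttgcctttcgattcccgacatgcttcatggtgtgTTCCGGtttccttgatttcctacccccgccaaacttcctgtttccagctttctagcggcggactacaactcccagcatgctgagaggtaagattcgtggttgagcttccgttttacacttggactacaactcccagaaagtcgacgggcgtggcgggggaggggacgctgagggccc
MRPL4, chr19:10251964-10252213, plus strand: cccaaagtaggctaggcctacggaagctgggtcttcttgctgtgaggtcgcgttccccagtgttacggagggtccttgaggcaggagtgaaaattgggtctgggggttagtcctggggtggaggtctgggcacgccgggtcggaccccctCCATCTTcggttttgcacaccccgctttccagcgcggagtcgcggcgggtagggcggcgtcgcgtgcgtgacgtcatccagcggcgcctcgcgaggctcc
MRPS11, chr15:88467458-88467707, plus strand: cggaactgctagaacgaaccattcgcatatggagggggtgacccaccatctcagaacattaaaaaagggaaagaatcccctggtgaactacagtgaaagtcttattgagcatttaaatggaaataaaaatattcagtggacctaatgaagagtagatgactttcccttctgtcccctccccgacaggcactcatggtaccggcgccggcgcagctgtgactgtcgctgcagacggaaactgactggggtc
MRPS16, chr10:73252645-73252894, minus strand: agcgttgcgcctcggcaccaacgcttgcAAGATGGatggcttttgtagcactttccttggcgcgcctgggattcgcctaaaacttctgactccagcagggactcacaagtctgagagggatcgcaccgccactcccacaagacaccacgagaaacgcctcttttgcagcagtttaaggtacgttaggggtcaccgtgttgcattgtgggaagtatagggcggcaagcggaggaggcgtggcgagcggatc
MRPS25, chr3:15065316-15065565, minus strand: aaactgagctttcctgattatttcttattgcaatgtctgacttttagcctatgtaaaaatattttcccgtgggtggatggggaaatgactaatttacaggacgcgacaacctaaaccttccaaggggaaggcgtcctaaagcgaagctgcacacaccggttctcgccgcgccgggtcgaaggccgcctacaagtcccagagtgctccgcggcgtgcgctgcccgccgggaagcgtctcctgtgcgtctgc
MRPS30, chr5:44808697-44808946, plus strand: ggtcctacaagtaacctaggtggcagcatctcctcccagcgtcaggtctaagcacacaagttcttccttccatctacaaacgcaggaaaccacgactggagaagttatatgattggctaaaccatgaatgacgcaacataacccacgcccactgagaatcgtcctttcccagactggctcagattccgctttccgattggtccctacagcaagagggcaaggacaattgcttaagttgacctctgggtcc
MRPS35, chr12:27710582-27710831, plus strand: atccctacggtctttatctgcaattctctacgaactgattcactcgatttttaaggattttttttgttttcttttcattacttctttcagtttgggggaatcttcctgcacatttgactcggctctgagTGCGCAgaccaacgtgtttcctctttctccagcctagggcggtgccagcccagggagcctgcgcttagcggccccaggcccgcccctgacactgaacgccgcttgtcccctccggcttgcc
MRPL24 held an ETS core whose first base was 177 bases before the start, and MRPS35 held an NRF1 half-site. A YY1 core was held by MRPS16 and by the picked window of MRPL4. No capitals appear for MRPS11, MRPS25 and MRPS30, which says only that these letters are not in this window.

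A RefSeq window was found for 66 of the 74 genes, 11 of them with more than 1, giving 82 windows in all. The ETS core was present in 43.9% of these windows, against 19.0% of the windows of all genes on the array. The NRF1 half-site was present in 17.1% of the members' windows and 8.67% of the array genes' windows, and the YY1 core in 13.4% and 3.25%. An E-box (CACGTG, its own reverse complement) stood in 8.54% of the members' windows, near its share of 7.47% on the array. At least 1 of the first 3 motifs occurred in 64.6% of the members' windows and 27.7% of the array genes' windows. Among the members, the 21 windows of genes lower with shS100A10_5 at an unadjusted p under 0.05 held the ETS core in 33.3% and the YY1 core in 23.8%, and the 61 windows of the other members held them in 47.5% and 9.84%. These shares are descriptions of letters, and no binding was measured.

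Beyond the genes that passed, most of the 74 lay below shNCT with shS100A10_5. The change was negative for 58 of them (78.4%), against 46.7% of all probe sets, and its median was -0.28 on the log2 scale, against 0.02 for all probe sets. The lower and upper quartiles of the change were -0.51 and -0.02 over the members, against -0.20 and 0.24 over all probe sets. At an unadjusted p under 0.05, 20 genes (27.0%) were lower and 0 were higher, compared with 10.3% and 10.7% of all probe sets, together 21%. With shS100A10_1 the median change was -0.02, against 0.01 for all probe sets. Of the members, 42 (56.8%) had a negative change with this hairpin, against 49% of all probe sets. The quartiles were -0.17 and 0.09 over the members, against -0.15 and 0.16 over all probe sets.

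**Figure D2:**
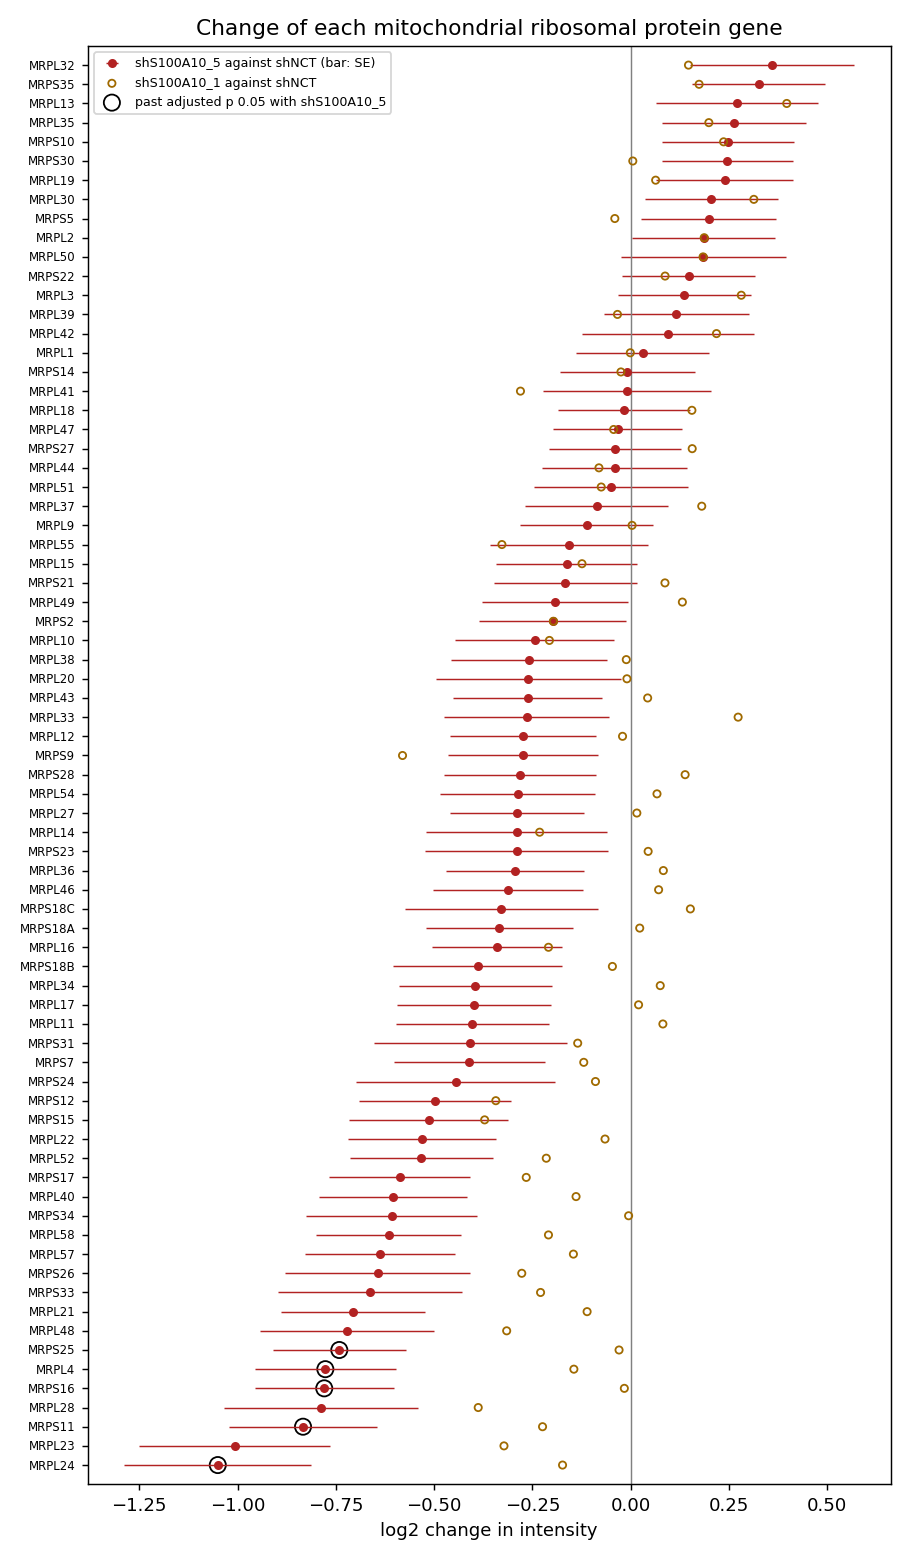
Log2 change in intensity of each of the 74 genes, sorted by its change with shS100A10_5 against shNCT (filled points with a bar of 1 SE to each side), with the change with shS100A10_1 against shNCT as open points. Open rings mark the 5 genes past an adjusted p of 0.05 with shS100A10_5, all on the negative side, while most open points lie near 0.

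The separation of the groups was read from the same values as the changes, so it is a further description and not separate evidence. Both shS100A10_5 arrays lay below both shNCT arrays for 38 genes (51.4%), against 23.8% of all probe sets, and above them for 10, against 26.7% of all probe sets. For 26 genes (35.1%), 19 with an MRPL and 7 with an MRPS symbol, both shS100A10_5 arrays were below all 4 other arrays, a pattern seen in 15% of probe sets on the whole table. They were above all 4 for 4 genes, MRPL19, MRPS5, MRPS30 and MRPS35, against 16.3% of all probe sets. With shS100A10_1, both arrays lay below both shNCT arrays for 18 genes and above them for 15, against 20.5% and 21.9% of all probe sets.

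The shift was larger on the second shS100A10_5 array. The median of the 74 genes relative to the shNCT mean was -0.12 on replicate 1 and -0.40 on replicate 2 of shS100A10_5, 0.03 and -0.04 on those of shS100A10_1, and 0.02 and -0.02 on those of shNCT, while the median of all probe sets lay between -0.0012 and 0.034 on every array. Replicate 2 of shS100A10_5 was the lowest of the 6 arrays for 45 genes and the highest for 6, and replicate 1 was the lowest for 7 and the highest for 5. Over all 16965 probe sets, replicate 2 was the lowest for 3857 and the highest for 4707. Replicate 1 was the lowest for 2568 of them and the highest for 2537. Between the 2 shS100A10_5 arrays the members differed by a median of -0.25 (SD 0.313 over genes, replicate 2 lower for 57), against -0.03 between the shS100A10_1 arrays and -0.05 between the shNCT arrays. Without replicate 2 of shS100A10_5, 0 members and 0.0177% of all probe sets passed, and the members' median change was -0.12. On replicate 1 alone, 43 members (58.1%) lay below both shNCT arrays, against 36.7% of all probe sets. Without replicate 1, 8 members and 5.86% of all probe sets passed, and the median change was -0.40. The 5 genes that fell kept log2 changes of -0.78 to -0.65 without replicate 2, of which MRPL24, at -0.68 in place of -1.05, moved the most. Without either shNCT array in turn 0 members passed, at 0.13% and 0.0707% of all probe sets, and the median change stayed at -0.27, so with a lone array in a group the counts say little about the members. Scaling moved the count of 5 to 1 under quantile normalization and to 0 with each array centred on its median, where 2.61% and 2.82% of all probe sets passed.

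**Figure D3:**
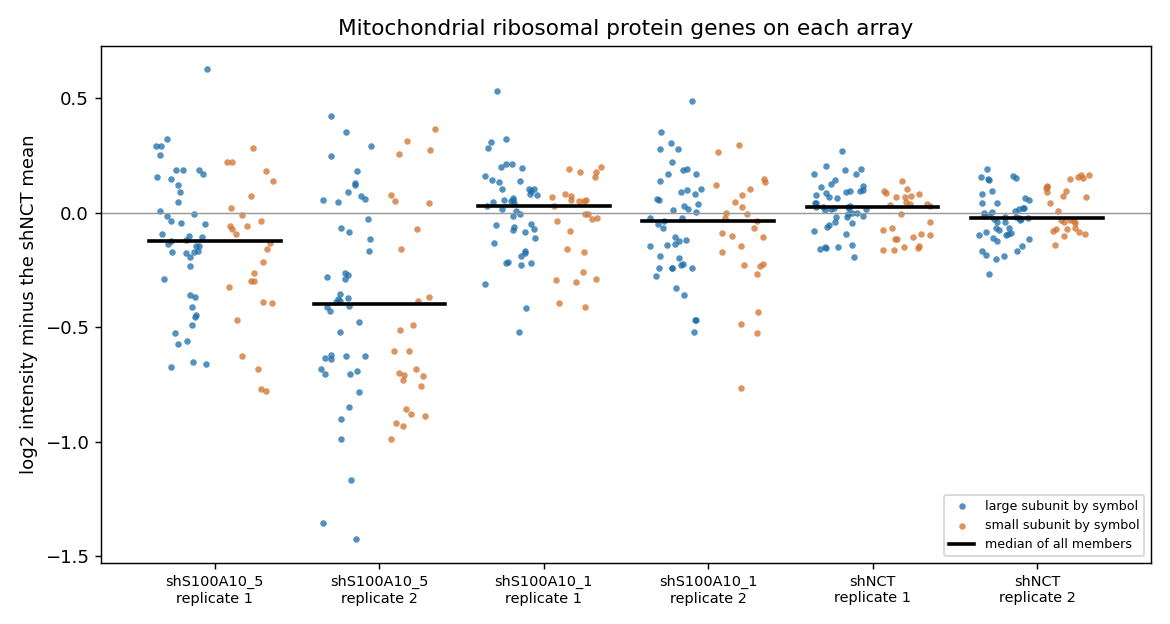
Log2 intensity minus the mean of the 2 shNCT arrays for each of the 74 genes on each of the 6 arrays, with MRPL and MRPS symbols in different colours and a line at the median of all members. The medians are -0.12 and -0.40 on the shS100A10_5 arrays and within 0.04 of 0 on the other 4.

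Among large-subunit genes, 2 of 47 passed with shS100A10_5, 36 changes were negative and the median change was -0.26. Among small-subunit genes, 3 of 27 passed, 22 changes were negative and the median change was -0.33. Of all probe sets, 1.75% fell and 1.43% rose past the threshold, and 46.7% had a negative change. MRPS30 and MRPS18A carry small-subunit names, but their proteins sit in the large subunit. With both counted there, the medians were -0.26 over 49 large-subunit genes and -0.39 over 25 small-subunit genes. The 45 members with a bacterial homologue had a median of -0.27 with 4 past the threshold, and the 29 that are specific to mitochondria had a median of -0.29 with 1 past it. Without replicate 2 of shS100A10_5, the medians were -0.12 for the large and -0.13 for the small subunit by symbol, -0.12 for members with a bacterial homologue and -0.10 for those specific to mitochondria. No difference between subunits or between these classes was tested.

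Several large-subunit genes came close to the threshold with shS100A10_5. MRPL23, a protein at the rim of the exit tunnel, had intensities of 227.2 and 140.5 with shS100A10_5, 317.4 and 259.9 with shS100A10_1, and 324.1 and 398.0 with shNCT, a log2 change of -1.01 ± 0.24 (limma, adjusted p = 0.0532). MRPL28 had 441.0 and 261.4 with shS100A10_5, 473.2 and 424.3 with shS100A10_1, and 524.5 and 655.3 with shNCT, a change of -0.79 (adjusted p = 0.106), and its change with shS100A10_1 was -0.39. In both genes replicate 2 of shS100A10_5 was well below replicate 1. MRPL58, a peptidyl-tRNA hydrolase (ICT1) built into the large subunit, had 688.9 and 544.9 with shS100A10_5, 800.4 and 823.4 with shS100A10_1, and 1001.4 and 879.5 with shNCT, a change of -0.62 (adjusted p = 0.0967), its 3 groups separate and in this order. MRPL21 and MRPL57, chosen for mention after their values were seen, also had an adjusted p between 0.05 and 0.10, which brought the count under 0.10 to 9, against 7.92% of all probe sets.

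The stalk that recruits translation factors includes MRPL10 and MRPL12, with MRPL11 at its base. MRPL11 had intensities of 1611.9 and 1166.2 with shS100A10_5, 1892.7 and 1943.4 with shS100A10_1, and 1787.2 and 1837.3 with shNCT, a log2 change of -0.40 (limma, adjusted p = 0.269). MRPL12 had 7769.6 and 6278.4 with shS100A10_5, 9082.0 and 7623.3 with shS100A10_1, and 8438.0 and 8444.8 with shNCT, a change of -0.27 (adjusted p = 0.441). Both shS100A10_5 arrays were below both shNCT arrays for MRPL11 and for MRPL12, without passing the test. For MRPL10 the change was -0.24 (limma, adjusted p = 0.537), and its shS100A10_5 arrays overlapped those with shNCT. MRPL41, which has also been described as a pro-apoptotic protein, had a change of -0.01 with shS100A10_5, and its sign differed between processing settings.

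In the small subunit, MRPS12, a protein of the decoding centre, had intensities of 238.3 and 284.5 with shS100A10_5, 329.0 and 255.0 with shS100A10_1, and 350.4 and 385.3 with shNCT. Both hairpin groups lay below both shNCT arrays, by -0.50 with shS100A10_5 (limma, adjusted p = 0.176) and by -0.34 with shS100A10_1. The changes of MRPS15, another small-subunit protein, were -0.51 with shS100A10_5 and -0.37 with shS100A10_1, and neither passed. The paralogues MRPS18A, MRPS18B and MRPS18C had changes of -0.33, -0.39 and -0.33 with shS100A10_5, and 0 of the 3 passed. MRPS18C had 1048.9 and 601.3 with shS100A10_5, 1112.7 and 1104.5 with shS100A10_1, and 1065.9 and 934.3 with shNCT, so its negative change came from replicate 2 alone, and without that array it was 0.07. MRPS24 had 4667.4 and 2639.0 with shS100A10_5, 4753.2 and 4243.6 with shS100A10_1, and 4434.2 and 5150.5 with shNCT. MRPS24 and MRPS18C differed most between the 2 shS100A10_5 arrays, by -0.82 and -0.80 on the log2 scale.

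A minority of 16 genes had a positive change with shS100A10_5, up to 0.36, and the lowest adjusted p among them was 0.307. MRPS35 had intensities of 4022.0 and 4264.6 with shS100A10_5, 3496.2 and 3977.2 with shS100A10_1, and 3379.4 and 3233.0 with shNCT, a log2 change of 0.33 (limma, adjusted p = 0.307). MRPS30 had 10142.8 and 11111.1 with shS100A10_5, 8721.0 and 9257.1 with shS100A10_1, and 8911.4 and 8992.8 with shNCT, a change of 0.25 (adjusted p = 0.441). For both genes the shS100A10_5 arrays were the highest of the 6. MRPL32, whose precursor is processed by the m-AAA protease before it joins the large subunit, had 4800.0 and 3317.1 with shS100A10_5, 3344.9 and 3547.1 with shS100A10_1, and 3372.5 and 2869.7 with shNCT. Its change of 0.36 was the highest of the members, and replicate 2 of shS100A10_5 lay within the values of the other groups. Positive changes of 0.20 to 0.27 were found for MRPS5, MRPS10, MRPL13 and MRPL35.

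MRPS9 was the member with the lowest p with shS100A10_1. It had intensities of 613.2 and 719.3 with shS100A10_5, 611.0 and 472.4 with shS100A10_1, and 829.4 and 778.1 with shNCT. Both hairpin groups were below both shNCT arrays, by -0.58 on the log2 scale with shS100A10_1 (limma, unadjusted p = 0.0122, adjusted p = 0.407) and by -0.27 with shS100A10_5. The highest positive changes with shS100A10_1 were 0.40 for MRPL13, 0.31 for MRPL30, 0.28 for MRPL3, 0.27 for MRPL33 and 0.24 for MRPS10, and 0 of these genes passed. MRPL55 had one of the largest negative changes with this hairpin, at -0.33, but its arrays with shS100A10_1 overlapped those with shNCT. Replicates 1 and 2 of shS100A10_1 differed most for MRPL33, by -0.51, and MRPL38, by -0.42, and those of shNCT for MRPL13, by -0.54, and MRPL50, by -0.40.

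The hairpins were also compared with each other. MRPS16 was 1.70-fold lower with shS100A10_5 than with shS100A10_1 (limma, adjusted p = 0.0496), the 1 member of 74 to pass, against 1.48% of all probe sets lower and 2.91% in either direction. Leaving out any of the 6 arrays ended this call. MRPS25 followed at a log2 difference of -0.71 (adjusted p = 0.0541). The median difference over the members was -0.26, against 0.02 for all probe sets, and the difference was negative for 56 genes, against 48% of all probe sets. Both shS100A10_5 arrays lay below both shS100A10_1 arrays for 37 genes and above them for 6, against 23.4% and 25.6% of all probe sets. At an unadjusted p under 0.05, 14 genes were lower and 0 higher, against 9.8% and 10.1% of all probe sets, together 19.9%. The comparisons share the same arrays in pairs, so they are not independent of each other.

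Gene span is the distance between the annotated ends of a gene, and the changes of the members differed with it. The members are compact, with a median span of 8605 bases against 26622.5 over 15674 probe sets with a span. In the 37 shorter members the median change with shS100A10_5 was -0.33 and 34 were negative, while in the 37 longer ones it was -0.09 and 24 were negative. On replicate 1 alone the medians were -0.17 for the shorter and -0.05 for the longer members, and on replicate 2 alone they were -0.52 for the shorter and -0.07 for the longer members. Across genes, which are not independent and share the same arrays, Spearman's rho between span and the change with shS100A10_5 was 0.294 over the members and 0.173 over all 15674 probe sets. For the change with shS100A10_1, whose median was near 0, it was 0.279 over the members but -0.0046 over all 15674 probe sets. Against the shNCT mean it was 0.231 over the members for replicate 1 of shNCT and -0.231 for replicate 2, its mirror image. The changes with both hairpins share the shNCT arrays, so their rho values are not independent. For shS100A10_5 against shS100A10_1, which leaves shNCT out, rho was 0.179 over the members and 0.192 over all 15674 probe sets. The cause of these relations was not tested. With a smooth trend on span removed from every array, the members' median change was -0.23 and 3 passed.

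**Figure D4:**
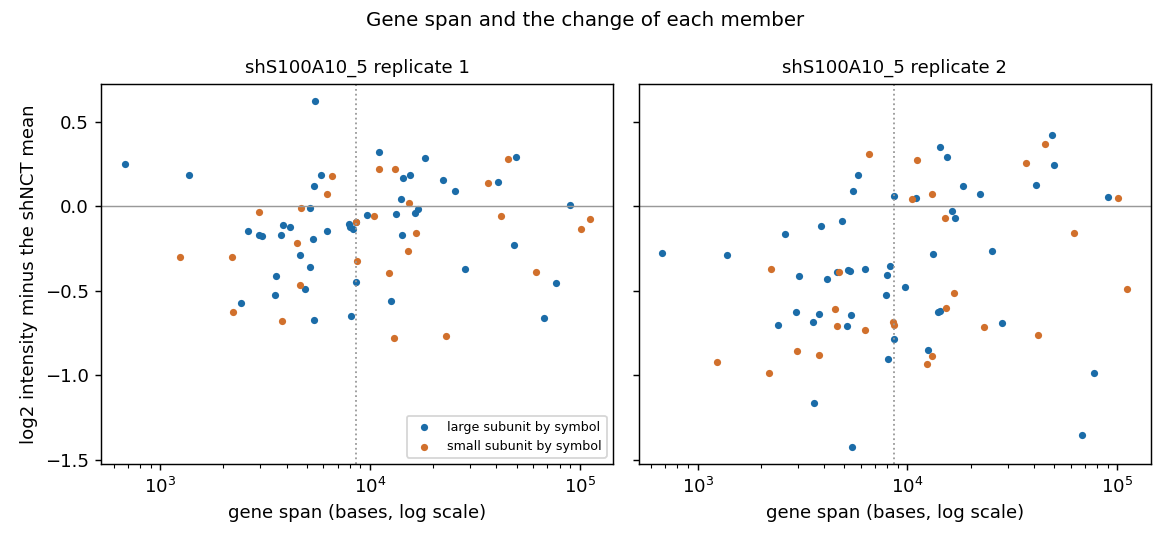
Log2 intensity minus the shNCT mean against gene span (log scale, bases) for the 74 genes on each shS100A10_5 array, with a dotted line at the median span of 8605 bases. On replicate 2 the members left of the line lie lower, with medians of -0.52 for the shorter and -0.07 for the longer members.

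Genes that work with the mitochondrial ribosome were examined in the same fit. Of 6 listed proteins that are part of the particle or bind it, and whose symbols do not follow the rule, 5 were measured. Their median change with shS100A10_5 was -0.47, which is the value of OXA1L. Without replicate 2 of shS100A10_5 this median was -0.23. None of the 5 passed, but for each, both shS100A10_5 arrays were below the other 4, against 15% of all probe sets. OXA1L, which inserts newly made proteins into the inner membrane and binds the ribosome, had intensities of 11445 and 11129 with shS100A10_5, 15511 and 15482 with shS100A10_1, and 16201 and 15144 with shNCT, a log2 change of -0.47 (limma, adjusted p = 0.136). GADD45GIP1, a subunit of the large particle, had a change of -0.66 and CHCHD1, a subunit of the small particle, -0.50.

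Of 24 measured assembly factors, 2 fell with shS100A10_5 and 0 rose, against 1.75% and 1.43% of all probe sets. The median change of the 24 was -0.20, or -0.13 without replicate 2 of shS100A10_5. METTL17, which acts in small-subunit assembly, had 631.1 and 552.8 with shS100A10_5, 1397.7 and 1039.0 with shS100A10_1, and 1386.3 and 1319.7 with shNCT, a log2 change of -1.20 (limma, adjusted p = 0.0147). YBEY, an rRNA maturation enzyme, had 213.0 and 202.3 with shS100A10_5, 374.5 and 304.8 with shS100A10_1, and 386.7 and 432.0 with shNCT, a change of -0.98 (adjusted p = 0.0263). Of 20 measured genes listed as tRNA synthetases of mitochondria, 1 fell. That list also holds QRSL1, GATB and GATC, subunits of an amidotransferase, and GARS1 and KARS1, which encode the cytosolic enzymes too. CARS2, the cysteinyl-tRNA synthetase, had 871.3 and 671.1 with shS100A10_5, 1002.9 and 1133.2 with shS100A10_1, and 1555.5 and 1757.9 with shNCT, a change of -1.11 (adjusted p = 0.0199). For METTL17, YBEY and CARS2 the groups with shS100A10_5 and with shNCT did not overlap. Of 13 measured translation factors, 0 passed against shNCT. Their median was -0.08 with shS100A10_5, or -0.12 without its replicate 2, and 0.22 with shS100A10_1. MRRF, the ribosome recycling factor, had a positive change of 0.58 with shS100A10_5. MTFMT, which formylates the initiator tRNA, and TSFM, an elongation factor, had changes of -0.51 each with this hairpin. Between the hairpins 1 of the 13 passed, MTFMT, lower with shS100A10_5 by 0.76 on the log2 scale (limma, adjusted p = 0.0421). Of all probe sets, 1.48% were lower there.

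The regulators of mitochondrial genome expression had a median change near 0, at -0.06 over 15 measured genes with shS100A10_5. Of these, 1 rose, against 1.43% of all probe sets. PPARGC1A, the coactivator PGC-1α, had intensities of 431.3 and 534.6 with shS100A10_5, 206.7 and 205.8 with shS100A10_1, and 230.6 and 188.1 with shNCT, a log2 change of 1.20 (limma, adjusted p = 0.0135). Its shS100A10_5 arrays were the 2 highest. TFAM, which packages mitochondrial DNA and starts its transcription, and TFB2M, which works with it, had positive changes of 0.60 and 0.63 and did not pass. Without replicate 2 of shS100A10_5, where 0.0177% of all probe sets passed, these genes kept log2 changes of -1.10 for METTL17, -0.94 for YBEY, -0.92 for CARS2 and 1.05 for PPARGC1A, with adjusted p-values of 0.130 to 0.155. The medians without that array were -0.03 for the genes listed as tRNA synthetases, in place of -0.09, and -0.09 for the regulators.

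Similar shifts were found in related gene families. With shS100A10_5, 46.7% of all probe sets had a negative change and 3.18% passed the threshold. The 42 cytosolic ribosomal protein genes had a median change of -0.25 with this hairpin, with 40 negative and 0 past the threshold. The 69 nuclear genes for subunits of oxidative phosphorylation had a median of -0.38, with 55 negative and 1 past the threshold, UQCR11 of complex III at -0.95 (limma, adjusted p = 0.0486), which was -0.68 without replicate 2 and did not pass. On the shS100A10_5 arrays the medians relative to the shNCT mean were -0.11 and -0.40 for cytosolic ribosomal proteins and -0.15 and -0.59 for oxidative phosphorylation subunits, beside -0.12 and -0.40 for the mitochondrial ribosomal proteins. The difference between families was not tested.

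**Figure D5:**
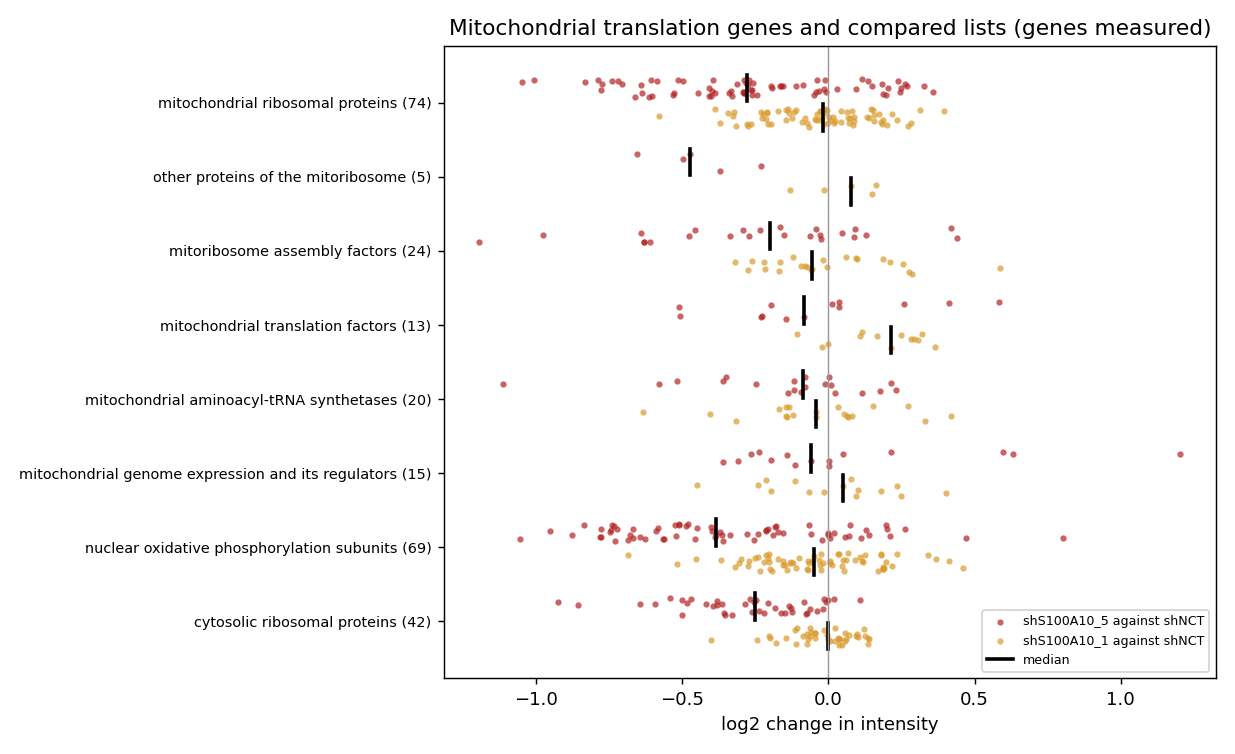
Log2 change in intensity against shNCT for each measured gene of 8 groups, with shS100A10_5 in the upper row and shS100A10_1 in the lower row of each group and a bar at the median. With shS100A10_5 the medians of the mitochondrial ribosomal proteins, the oxidative phosphorylation subunits and the cytosolic ribosomal proteins are -0.28, -0.38 and -0.25, while with shS100A10_1 these 3 medians lie near 0.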

How the data were processed

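RNA of MDA-MB-231 cells, labelled with biotin, was hybridised to whole-transcript arrays, 2 per hairpin. The deposited table gives every probe set an intensity on each array, in linear units, made by the authors with Transcriptome Analysis Console, per the submitters' processing notes. For its version, background correction and normalization, the sources used here give nothing. The log2 of each value ended at 5 decimals, and detection calls and scan dates were not among the values used, which left background and batches untested. The small number of arrays limits the precision.

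Groups came from the sample titles. Log2 intensities of all 16965 probe sets (15674 with 1 symbol, 1291 with none) were fitted on all 6 arrays with lmFit and eBayes of limma 3.58.1 (R 4.3.3), a mean per group, 3 residual and 7.16 prior degrees of freedom, and 3 contrasts. P-values were adjusted over all probe sets by Benjamini-Hochberg, at a threshold of 0.05. The fit was tested on simulated data. All 74 members matched RefSeq (GRCh38.p14) by gene identifier. This table gave gene span, and the RefSeq promoter windows gave the sequences, credited to the same build. The array's own build was not given in the sources used.

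The members and gene lists were chosen with earlier results of these data known. The members named were those past the threshold, the 5 largest changes in each direction per comparison, a fixed set of members with known special roles, and the 2 with the largest replicate difference per group. From each other list up to 3 genes with the smallest p with shS100A10_5 and 1 with shS100A10_1 were eligible. MRPL10, MRPL19, MRPL21 and MRPL57 fall outside this rule and were named after their values were seen. Alternatives were scaling (quantile, median centring), a filter on dim probe sets, the variance prior (trend, robust), array weights, a replicate block, the groups in the fit, 1 probe set per gene, a span trend, thresholds, and each array left out.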

Additional observations from a re-analysis of the deposited data

Results flagged for a closer look

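MRPS16 differed between the 2 hairpins by a direct test. Its log2 difference, shS100A10_5 minus shS100A10_1, was -0.76 (limma, adjusted p = 0.0496), and both shS100A10_5 arrays were below both shS100A10_1 arrays. The difference kept its sign under all 16 alternatives tried, and it passed under 3 of them: with dim probe sets left out, with the variance prior following intensity and with 1 probe set per gene.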

How the results depend on the processing

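The count of 5 members that fell with shS100A10_5, at 3.18% of all probe sets in either direction, moved with the processing, as did that share. It was 11 with the variance prior following intensity (trend; 8.57% of all), 3 with a span trend removed (3.25%), 3 with only the compared groups in the fit (2.96%), 1 under quantile normalization (2.61%), and 0 with median centring (2.82%) or array weights (1.43%). It was 9 at an adjusted p under 0.10 (7.92%) and 20 at an unadjusted p under 0.05 (21%), and 0 to 8 with each array left out (0.0177% to 5.86%). With shS100A10_1 the count was 0 under every setting except the unadjusted p, where it was 1. The single call between hairpins (2.91% of all) became 6 with the trend (6.74%), 2 without dim probe sets (6.22%), 4 at an adjusted p under 0.10 (6.42%) and 14 at the unadjusted p (19.9%). It was 0 under quantile normalization, median centring, the robust prior, array weights, the span trend and with only the compared groups (1.69% to 2.64% of all), and 0 to 2 with each array left out (0.0413% to 3.87%). Leaving out arrays moved the median change to between -0.40 and -0.12 for shS100A10_5 against shNCT, -0.036 and 0.029 for shS100A10_1 against shNCT, and -0.40 and -0.10 between hairpins. The cause was not tested.

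The sign turned for MRPL41 with shS100A10_5, to 0.0014 under quantile normalization, 0.0080 with median centring, 0.074 with the span trend removed, and a range of -0.27 to 0.25 with each array left out (0.25 without shS100A10_5 replicate 2, 0.083 without shNCT replicate 2). It also turned for MRPS18C with shS100A10_5 (-0.73 to 0.072, the highest without shS100A10_5 replicate 2), MRPL50 with shS100A10_5 (-0.018 to 0.39, the lowest without shNCT replicate 2) and MRPL32 between hairpins (-0.054 to 0.48, the lowest without shS100A10_5 replicate 1). The labels do not say whether the replicate numbers pair the samples, and 2 arrays a group cannot settle it. Correlations of same-numbered deviations over all probe sets were -0.035 for shS100A10_5 and shNCT, -0.022 for shS100A10_1 and shNCT, and 0.188 for the hairpins. Over the members they were -0.294, -0.231 and 0.185 in the same order. With the number as a replicate block the counts were 6 (3.68% of all), 0 and 0, and the median changes were as without it. With 2 arrays a group and no detection calls, small changes and signal over background could not be resolved.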
